A study of Mus musculus with 2 samples.

Results

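Of the 1792 Tomato+ cells from *SM22-SmoM2* wound dermis that passed the filter on mitochondrial transcripts, 364 (20.3%, 18.5 to 22.3) were *Egfl6 Wif1 Sox11* fibroblasts, and both libraries together held 4680 cells. These cells were chosen by their own counts. A cell was included when at least 4 of the 7 genes *Egfl6*, *Wif1*, *Sox11*, *Col26a1*, *Bcl11b*, *Fam212a* and *Pth1r* had at least 1 unique molecular identifier (UMI, the tag that marks 1 captured transcript molecule). Fewer than 5 of the 9 genes *Lef1*, *Alpl*, *Rspo1*, *Rspo3*, *Cd24a*, *Corin*, *Bmp7*, *Prlr* and *Lamc3* could be detected, and *Pecam1*, *Sox10*, *Rgs5* and *Ptprc*, which mark endothelial, Schwann, mural and immune cells, could have at most 2 UMIs together. Levels of all these genes in the chosen cells are therefore a description of the choice and not a result. The comparison cells were the other *SM22-SmoM2* fibroblasts, 876 cells with at least 10 UMIs of *Pdgfra*, *Lum*, *Dpt*, *Lox* and *Postn* together per 10000, and 1699 control fibroblasts gated in the same way. Of the 1713 control cells in the gate, the 14 that met the rule were left out.

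Both libraries came from skin wounds of mice aged 4 to 5 weeks. In every mouse the *SM22* promoter, that of the contractile gene *Tagln*, drove rtTA, which switches on tetO-Cre in the presence of doxycycline, and Cre switched on the red reporter Tomato at the *R26* locus. The *SM22-SmoM2* mice also carried SmoM2, a constitutively active form of the Hedgehog transducer Smoothened, at that locus, and the control mice did not. Doxycycline was given at 20 g/kg from day 1 after wounding, until 3 days after the wound was fully re-epithelialized, and Tomato+ cells were sorted from the dermis of wounds 3 days after scab detachment, so only cells in which the *SM22* promoter had been active could be captured. There was 1 library per condition, each a pool in which both male and female cells were found, so condition and library cannot be told apart and no test between groups was possible. The *SM22-SmoM2* library held 1802 cells and 17814222 UMIs in the 1792 cells kept (median 8837.5 per cell), and the control library 2878 cells and 30103855 UMIs in the 2856 kept (median 8607.5). Ranges in parentheses are 95% intervals that cover counting error only.

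In mouse skin, dermal fibroblasts just under the epidermis gather into dermal condensates and later form the dermal papilla, the signaling center at the base of each hair follicle. Hedgehog ligand binds *Ptch1* and frees Smoothened, which activates Gli transcription factors, and *Ptch1*, *Gli1* and *Hhip* are themselves induced by the pathway. Wnt and BMP signals act on the same cells and are held in check by secreted antagonists.

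Each gene that chose the cells has a distinct known role, and positions below are those of the mouse genome build GRCm38. *Egfl6* (ENSMUSG00000000402, chromosome X, 166523007 to 166585720, minus strand) encodes a secreted EGF-domain protein of the extracellular matrix. *Wif1* (ENSMUSG00000020218, chromosome 10, 121033960 to 121100650, plus strand) encodes a secreted protein that binds and inhibits Wnt ligands. *Sox11* (ENSMUSG00000063632, chromosome 12, 27334264 to 27342574, minus strand) encodes a SoxC transcription factor of developing mesenchyme and neurons. *Bcl11b* (ENSMUSG00000048251, chromosome 12, 107910403 to 108003602, minus strand) encodes a zinc finger transcription factor. *Pth1r* (ENSMUSG00000032492, chromosome 9, 110722085 to 110747145, minus strand) encodes the receptor for parathyroid hormone and its related peptide, and it overlaps *Myl3* on the other strand. *Col26a1* (ENSMUSG00000004415, chromosome 5, 136741759 to 136883209, minus strand) encodes a collagen and overlaps the predicted gene *Gm20485* on the same strand. *Fam212a* (ENSMUSG00000042106, chromosome 9, 107984223 to 107985879, minus strand) is called *Inka1* in the annotation and overlaps *Gm20661* on the other strand. The strand setting of the counting is not given in the sources used here, so reads from overlapping genes may have been shared.

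*Wif1* was the gene of the rule found in most cells and *Egfl6* the one that set them apart most. *Wif1* had a UMI in 319 of the 364 cells (87.6%), *Sox11* in 313, *Pth1r* in 294, *Col26a1* in 264, *Bcl11b* in 258, *Egfl6* in 232 (63.7%) and *Fam212a* in 209 (57.4%). A positive cell held a median of 6 UMIs of *Egfl6* and 5 of *Wif1*, against 1 of *Bcl11b*, and the highest cell held 30 UMIs of *Egfl6* and 50 of *Sox11*. The number of rule genes in a cell was 4 in 122 cells, 5 in 100, 6 in 93 and 7 in 49. The level of a gene is its UMIs summed over the cells of a group as counts per 1000000 UMIs (CPM). *Egfl6* had 432 CPM (412 to 452) in the *Egfl6 Wif1 Sox11* fibroblasts, 14.3 CPM (11.9 to 17) in the other *SM22-SmoM2* fibroblasts and 3.43 CPM (2.64 to 4.39) in control fibroblasts. *Wif1* had 510, 113 and 15.4 CPM in the same order, and *Sox11* had 355, 59.8 and 18.6 CPM. *Col26a1* had 179, 40.2 and 14.2 CPM, and *Bcl11b* 113, 26.1 and 14.6 CPM. *Fam212a* and *Pth1r* had no such step from control to *SM22-SmoM2* among the comparison cells, with 161, 21.3 and 20 CPM of *Fam212a* and 225, 54.3 and 45.9 CPM of *Pth1r*.

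Since deeper cells show more genes, every cell was also thinned at random to 2500 UMIs, which left out no cell. At that depth *Egfl6* was found in 47% of the chosen cells, 2.74% of the other *SM22-SmoM2* fibroblasts and 0.706% of control fibroblasts. Among 267 *SM22-SmoM2* cells with endothelial transcripts *Egfl6* was found in 0.749%. *Wif1* was found in 64.6%, 17.5%, 1.94% and 1.87% of these 4 groups, and *Sox11* in 56%, 9.93%, 2.94% and 4.49%. *Fam212a* was found in 29.4%, 4.45%, 5.36% and 12%. For this gene the endothelial cells give no background, since before thinning 31.5% of them held it, with up to 13 UMIs in a cell. Before thinning, the median depth was 10934.5 UMIs in the *Egfl6 Wif1 Sox11* fibroblasts, 9889.5 in the other *SM22-SmoM2* fibroblasts, 9387 in control fibroblasts and 7290 in the *SM22-SmoM2* endothelial cells. The plot of thinned detection shows the chosen cells above every other group for each gene.

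**Figure D1:**
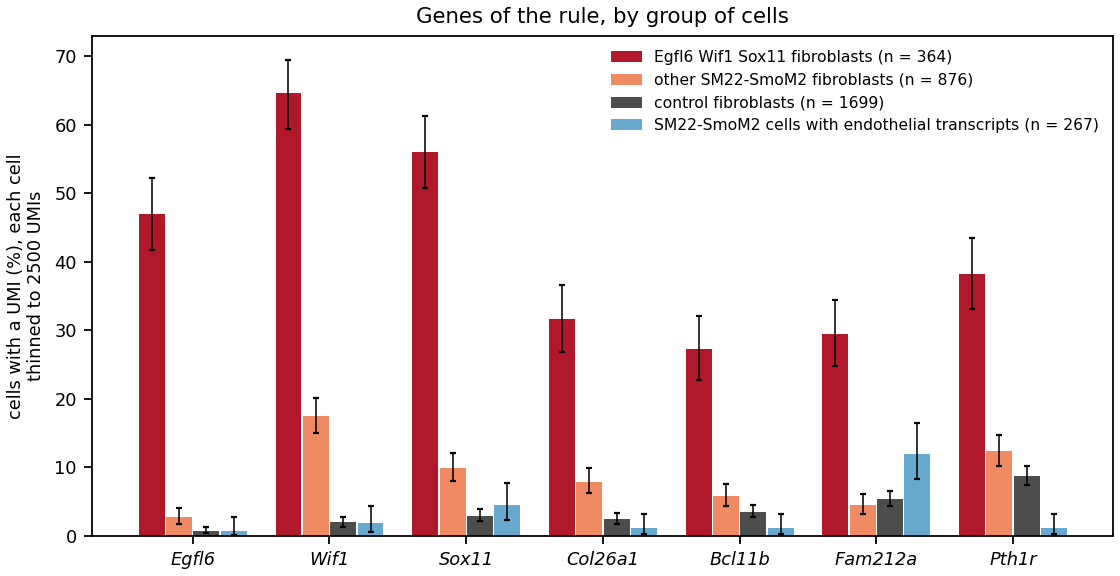
Share of cells with at least 1 UMI of each gene of the rule (y axis, percent of cells, each cell thinned to 2500 UMIs) in 4 groups of cells; bars start at 0 and error bars are exact 95% binomial intervals for counting error. *Wif1* reaches 64.6% and *Egfl6* 47% in the *Egfl6 Wif1 Sox11* fibroblasts, against 17.5% and 2.74% in the other *SM22-SmoM2* fibroblasts; the genes chose the cells, so the gap is a description.

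In the control library 14 of 2856 cells met the same rule (0.49%, 0.268 to 0.821), and all of them lay inside the fibroblast gate. These 14 cells were deep, with a median of 15322 UMIs, and reached the rule through other genes, since *Pth1r* was found in 92.9% of them and *Bcl11b* in 85.7%, but *Egfl6* in 14.3% and *Wif1* in 21.4%. Their level of *Egfl6* was 28.1 CPM and of *Col1a1* 26420 CPM, against 432 and 10059 CPM in the *Egfl6 Wif1 Sox11* fibroblasts. After thinning to 2500 UMIs no control cell met the rule, while 150 *SM22-SmoM2* cells did.

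The cells express collagen genes as fibroblasts do, with *Col1a1* and *Col3a1* at a lower level than in the comparison cells. *Col1a1* had 10059 CPM in them against 339 CPM in *SM22-SmoM2* endothelial cells, and *Pdgfra*, the receptor that marks dermal fibroblasts, had 138 CPM (127 to 150) against 3.83 CPM. The rule held *Pecam1*, *Rgs5*, *Sox10* and *Ptprc* low in the chosen cells and the gate did not do so in the comparison cells, so levels of other lineages' genes follow from the choice and are given as a description. Markers of other lineages, 6 genes a list with the capped gene of the rule included where there was one, summed to 30.4 CPM for endothelial cells (most of it *Pecam1*, 9.06 CPM, and *Cdh5*, 7.9 CPM), 34.4 CPM for mural cells (*Mcam* 21.8 CPM, *Myh11* at 0 UMIs), 30.2 CPM for Schwann cells and 45.3 CPM for keratinocytes (*Krt10* 44.6 CPM, *Krt14* and *Krt17* at 0 UMIs). Of the genes of these lists measured against the other *SM22-SmoM2* fibroblasts, 2 of 4 endothelial, 3 of 4 mural, 5 of 5 Schwann and 0 of 1 keratinocyte genes were at least 2-fold lower, as were 6.84% of all genes tested. The 6 immune genes had 196 CPM against 128 CPM, with *Lyz2* at 77.8 CPM the most abundant and, as 1 of 5 measured, at least 2-fold higher (2.12% of all genes tested were), and 4 of the 364 cells (1.1%) carried at least 10 UMIs per 10000 of another lineage's list. One of these cells alone held 603 UMIs of the immune list and another 134, and the remaining 360 cells had 24.6 CPM of it. Of the 6 measured genes of the general fibroblast list outside the rule, *Dcn* was at least 2-fold lower and none was higher. In all, 263 of the 364 cells (72.3%) reached the fibroblast gate themselves, which is 23.1% (20.7 to 25.6) of the 1139 gated *SM22-SmoM2* cells. The 101 cells outside the gate, which have little *Lum* by definition (104 against 923 CPM), had less *Col1a1* (5731 against 11497 CPM) than the 263 inside, and more *Egfl6* (620 against 369 CPM) and *Sox11* (527 against 298 CPM), at a median depth of 8744 against 11712 UMIs.

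With no such cap on the gate, the comparison cells held more of other lineages' transcripts. Of the gated *SM22-SmoM2* cells, 213 (18.7%) had another lineage's transcripts, 184 of them Schwann and 22 mural, and in the control gate 611 of 1713 (35.7%) did, 527 of them Schwann. The Schwann list summed to 396 CPM in the other *SM22-SmoM2* fibroblasts and 648 CPM in control fibroblasts. A strict comparison, added after these values had been seen, left out every cell with at least 10 UMIs per 10000 of any of the 5 lists, and kept 360 chosen cells, 665 other *SM22-SmoM2* fibroblasts and 1088 control fibroblasts. As a description again, of the lineage genes still measured under it, 1 of 2 endothelial, 0 of 1 mural and 2 of 2 Schwann genes were at least 2-fold lower, and *Lyz2* was at a log2 ratio of 0.5. For the other lists, genes that it moved across 2-fold are named with their values, and genes that had under 50 UMIs in it were not counted. Within the strict gate the chosen cells were 28.2% (25.3 to 31.2) of *SM22-SmoM2* fibroblasts.

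Against the other *SM22-SmoM2* fibroblasts, 216 of 10200 genes (2.12%) were at least 2-fold higher and 698 (6.84%) at least 2-fold lower, not counting the genes of the rule and the gate. Genes needed 50 UMIs over both groups. In the strict comparison 266 of 9762 genes (2.72%) were higher and 511 (5.23%) lower. Cells of 1 library are not replicates, so these counts carry no test. The median gene had a log2 ratio of -0.08, and list medians below are read beside it, as list counts are beside these shares. The plot of summed levels shows where the named genes lie.

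**Figure D2:**
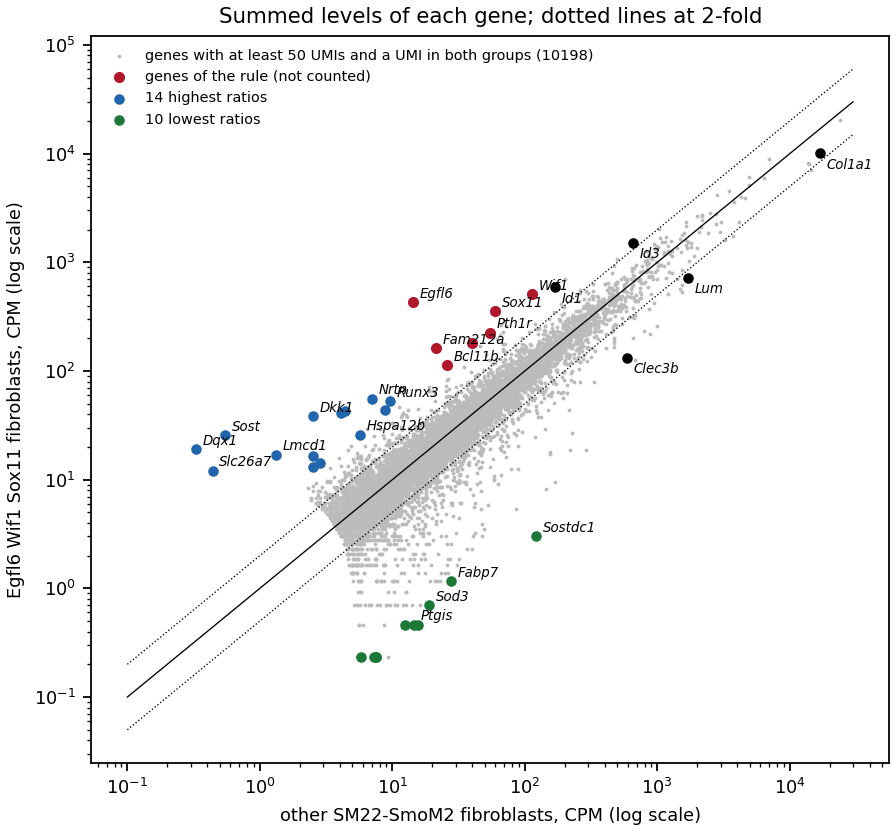
CPM of each gene in the *Egfl6 Wif1 Sox11* fibroblasts (y axis, log scale) against the other *SM22-SmoM2* fibroblasts (x axis, log scale); each point is a gene, the solid line marks equal levels and the dotted lines 2-fold. *Egfl6* lies farthest above the line among the genes of the rule (432 against 14.3 CPM), and *Sost* and *Dkk1* lie far above it at lower levels.

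Secreted Wnt antagonists held 3 of the 14 highest ratios among the genes the rule did not use, and other antagonists were lower. The 14 were taken from genes that were also higher after thinning and against the fibroblasts with Hedgehog target transcripts described below. *Sost*, which encodes sclerostin, an antagonist that binds the Wnt co-receptors, had 25.6 CPM (21 to 30.8) in the *Egfl6 Wif1 Sox11* fibroblasts and 0.55 CPM (0.179 to 1.28) in the other *SM22-SmoM2* fibroblasts, a log2 ratio of 5.54 (4.27 to 7.19). It was found in 65 chosen cells (17.9%) and in 4 of the 665 strict comparison cells, and no UMI was counted in control fibroblasts. *Dkk1*, a secreted ligand of the same co-receptors, had 38.6 CPM (32.9 to 44.9) against 2.53 CPM (1.6 to 3.8), a log2 ratio of 3.93 (3.3 to 4.63), and was found in 72 cells. *Frzb*, a secreted Frizzled-related protein, had 40.9 CPM (35.1 to 47.4) against 4.07 CPM (2.86 to 5.61), a log2 ratio of 3.33 (2.81 to 3.88). Of the 13 measured genes of the Wnt antagonist and feedback list (15 genes), 3 were at least 2-fold higher (2.12% of all genes tested were) and 4 at least 2-fold lower (6.84%), with a median log2 ratio of -0.21. *Sost* was not in this list but in the skeletal one, and the 3 higher were *Dkk1*, *Frzb* and *Nkd1*, an intracellular feedback inhibitor, with 83.6 against 26.4 CPM. The 4 lower were *Sfrp1* (25.8 against 85.4 CPM), *Sfrp2* (26.9 against 225 CPM), *Sfrp4* (1.86 against 27.3 CPM) and *Sostdc1* (3.02 against 122 CPM), and *Sostdc1* was at 29.2 CPM in the comparison cells once those with another lineage's transcripts were left out. *Axin2*, a general target of Wnt signaling, had 13 CPM against 9.24 CPM. Of 13 measured Wnt ligand and receptor genes, 1 was at least 2-fold lower, *Wnt2* with 4.18 against 16.7 CPM, a share near the 6.84% of all genes.

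Growth and nerve factors and a small group of other genes filled the rest of the 14 highest ratios. *Nrtn*, which encodes the neurotrophic factor neurturin, had 55.8 CPM (48.9 to 63.3) against 7.04 CPM (5.42 to 8.99), and *Ntf3*, which encodes neurotrophin-3, had 16.5 against 2.53 CPM. *Fgf10*, a mesenchymal growth factor that acts on epithelia, had 13 CPM (9.83 to 16.9) against 2.53 CPM. *Runx3*, a Runt-family transcription factor, had 53 CPM (46.3 to 60.3) against 9.68 CPM (7.76 to 11.9), a log2 ratio of 2.45 (2.09 to 2.82), and was found in 122 chosen cells. *Cpne5*, *Slc26a7*, *Lmcd1*, *Trim16* and *Hspa12b* had log2 ratios of 3.29, 4.78, 3.68, 2.33 and 2.19, and 34 to 123 chosen cells held each. The last 2 of the 14 rested on single cells. *Dqx1*, with the highest ratio of the 14 at 5.85, was found in 3 cells, 1 of which held 57.3% of its UMIs, and 49 of the 61 UMIs of *Ccl12*, a chemokine of immune cells, lay in the cell with 603 UMIs of the immune list. In the strict comparison 10 of the 14 genes stayed among the 14 highest, and *Tcf7*, *Aqp1*, *Ifitm1* and *Cyp4b1* took the other places. *Tcf7*, a transcription factor that mediates Wnt signals, had 33.4 against 5.53 CPM there, and *Aqp1*, a water channel, 172 against 32.8 CPM.

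Of the BMP targets measured, *Id1* and *Id3* were at least 2-fold higher over the chosen cells as a whole. BMP ligands and antagonists lay on both sides. *Id1*, an immediate target of BMP signaling, had 589 CPM (567 to 613) against 170 CPM (162 to 179), a log2 ratio of 1.79 (1.7 to 1.88), and *Id3* had 1516 CPM (1479 to 1553) against 657 CPM (640 to 674), a log2 ratio of 1.21 (1.16 to 1.26). In the chosen cells of sub-clusters 1 to 5, described below, *Id1* was at 998, 611, 209, 154 and 183 CPM. *Id3* was at 2794, 982, 291, 738 and 503 CPM in the same order. In sub-clusters 3 to 5 neither gene was at least 2-fold above the other *SM22-SmoM2* fibroblasts, and *Id3* was lower in sub-clusters 3 and 5. *Id2*, *Smad6* and *Smad7* were under 2-fold over all chosen cells, at log2 ratios of 0.29, 0.62 and 0.86. *Bmp3*, a BMP family ligand that opposes the others, had 62 against 21.1 CPM. *Bmp4* was at 1.63 CPM (0.654 to 3.35) against 5.72 CPM (4.27 to 7.5), and the extracellular BMP regulators *Chrdl1* and *Bmper* were at 4.88 and 1.16 CPM against 21.6 and 8.69 CPM. In all, 3 of the 11 measured genes of the 16 were at least 2-fold higher and 3 lower, against 2.12% and 6.84% of all genes, with a median of 0.46. Against the strict comparison cells 4 of 9 were higher and 2 lower (2.72% and 5.23% of all genes), as *Fst*, which encodes the antagonist follistatin, was at 1.41 there and 0.37 before, and *Bmp4* was not counted.

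Hedgehog targets were detected in most of these cells, at a level modestly above the other *SM22-SmoM2* fibroblasts. *Ptch1*, the Hedgehog receptor, had 157 CPM (146 to 170) against 109 CPM (102 to 116) in the other *SM22-SmoM2* fibroblasts and 12.4 CPM (10.9 to 14.1) in control fibroblasts. *Gli1* had 43.4, 19.5 and 4.79 CPM, and *Hhip*, a decoy receptor for the ligand, 35.3, 24.5 and 0.545 CPM. A UMI of *Ptch1* or *Gli1* was found in 78% of the chosen cells, 43.8% of the other *SM22-SmoM2* fibroblasts and 12.5% of control fibroblasts, and after thinning to 2500 UMIs in 37.4%, 22.4% and 4.59%, with 5.62% in *SM22-SmoM2* endothelial cells. The gap was smaller to the strict comparison cells, at 52.6%, or 27.1% after thinning. In male cells of the strict comparison *Hhip* was at 32.7 against 31.4 CPM, a log2 ratio of 0.06 (-0.3 to 0.4), and *Ptch1* at 159 against 127 CPM. Female cells had 44.9 against 14.7 CPM of *Hhip*, from 9 and 4 UMIs, and 234 against 162 CPM of *Ptch1*. Against the other *SM22-SmoM2* fibroblasts *Gli1* alone of the 10 measured pathway genes passed 2-fold (2.12% of all genes tested were that much higher), at a log2 ratio of 1.16 (0.85 to 1.46), and it was at 0.99 in the strict comparison. *Gas1* and *Boc*, co-receptors for Hedgehog ligand, had log2 ratios of 0.96 and 0.97, and *Smo* itself had 56.2 against 52.5 CPM. The files do not tell transcripts of the transgene from those of *Smo*.

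To show which differences also held against cells with Hedgehog target transcripts, the chosen cells were set beside the 252 other *SM22-SmoM2* fibroblasts with at least 2 UMIs of *Ptch1* and *Gli1* together. Here 239 of 8710 genes (2.74%) were at least 2-fold higher and 374 (4.29%) lower. *Sost*, *Dkk1*, *Frzb*, *Nrtn* and *Runx3* had log2 ratios of 4.72, 2.73, 2.4, 2.63 and 2. Genes with the highest ratios were named only if they were higher here too, so the direction of these follows from the choice. *Id1*, named from a list, had a log2 ratio of 1.33 (1.22 to 1.46). *Twist2* had a log2 ratio of 2.28 (2.04 to 2.52), and *Gas1* 1.99 (1.77 to 2.22). *Bmp3*, by contrast, was at 0.49 (0.19 to 0.8), and *Sfrp2*, which was lower than in all other fibroblasts, was at -0.12 (-0.53 to 0.29).

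Of the 20 measured genes of the dermal condensate and papilla list, which holds 22 genes outside the rule, 8 were at least 2-fold higher (2.12% of all genes) and 2 at least 2-fold lower (6.84%) than in the other *SM22-SmoM2* fibroblasts, with a median log2 ratio of 0.35. Beside *Dkk1*, *Fgf10* and *Bmp3*, they were *Trps1*, a transcription factor of hair and bone (70.6 against 18.9 CPM), *Cxcr4*, a chemokine receptor (46.9 against 11.2 CPM), *Sema6a*, a guidance protein (40.9 against 12.1 CPM), *Enpp2*, the enzyme autotaxin (37.6 against 11.5 CPM), and *Ggta1* (36.7 against 16.1 CPM). The 2 lower were *Bmp4* and *Sox2*, and *Sox2* was at 1.16 CPM against 19.1 CPM, or 5.4 CPM in the strict comparison. *Crabp1* and *Vcan*, abundant genes of the list, were at 316 and 113 CPM against 365 and 170 CPM. A UMI of *Crabp1* was found in 24.5% of the chosen cells and 39.2% of the strict comparison cells. The list was chosen with earlier results of these data known.

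The exclusion genes kept the chosen cells apart from 19 gated *SM22-SmoM2* cells with at least 5 of the 9. In those 19 cells *Rspo3*, which encodes a secreted Wnt amplifier, was at 515 CPM, *Rspo1* at 301 CPM and *Alpl*, alkaline phosphatase, at 249 CPM, against 14.9, 0.697 and 19.7 CPM in the *Egfl6 Wif1 Sox11* fibroblasts. *Sox11* and *Col26a1* were higher in the 19 cells, at 874 and 631 CPM, and *Egfl6* and *Wif1* lower, at 34.7 and 203 CPM. *Cd24a*, a surface glycoprotein among the exclusion genes, was still at 103 CPM (94 to 113) in the chosen cells, against 54.9 CPM in the other *SM22-SmoM2* fibroblasts and 8.11 CPM in control fibroblasts.

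Genes past 2-fold were mostly higher in the papillary dermis list and all lower in the reticular one. Of 9 measured papillary dermis genes, 4 were at least 2-fold higher (2.12% of all genes tested were), with a median of 0.98. These were *Trps1*, *Col23a1* (20.7 against 7.37 CPM), *Prdm1*, which encodes the repressor Blimp1 (60.9 against 30.2 CPM), and *Lrig1*, a receptor inhibitor (33.5 against 16.6 CPM). The other list gene past 2-fold, *Dpp4*, was lower at 3.02 against 10.6 CPM. Of the 13 reticular and adventitial genes, 9 were at least 2-fold lower (6.84% of all genes tested were) and none higher, with a median of -1.64. Among them *Clec3b*, which encodes tetranectin, was at 133 CPM (122 to 144) against 590 CPM (575 to 606), *Gpx3*, an extracellular peroxidase, at 233 against 789 CPM, *Plac8* at 44.1 against 214 CPM, and *Pi16*, a marker of adventitial fibroblasts, at 10.9 against 58.1 CPM. The other 5 lower genes of the list were *Mgp*, *Dlk1*, *Ly6c1*, *Thbs4* and *Dpp4*, and *Mfap5* lay just inside the limit at -1 and became the tenth in the strict comparison, at -1.21. The gate asked for fibroblast genes in the comparison cells and the rule did not in the chosen ones, so the choice may bear on these values.

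No gene of the matrix list was at least 2-fold higher, and 7 of 21 were lower (2.12% and 6.84% of all genes tested were). The list of fibrillar collagens and scar matrix has 23 genes, and *Lox* and *Lum*, genes of the gate, were not counted. *Col1a1* had 10059 CPM in the chosen cells, 16804 CPM in the other *SM22-SmoM2* fibroblasts and 18370 CPM in control fibroblasts, *Col3a1* 8015, 13865 and 16057 CPM, and *Sparc*, a collagen-binding glycoprotein, 7111, 14386 and 19468 CPM. The 21 measured genes had a median log2 ratio of -0.79 against the other *SM22-SmoM2* fibroblasts. Against the strict comparison cells 8 were lower (5.23% of all genes), as *Timp1*, an inhibitor of matrix proteases, was at -1.14 there and -0.98 before. *Eln*, which encodes elastin, was at 10.2 against 58.8 CPM, while *Col6a1* (1654 against 1480 CPM) and *Col6a2* (1199 against 1132 CPM) were near equal. *Dcn*, *Fn1*, *Col5a3*, *Col14a1* and *Col16a1* had log2 ratios between -1.3 and -1.01. Since the gate asked for fibroblast genes in the comparison cells and the rule did not ask for them in the chosen ones, the choice of cells bears on these values, and among the 263 cells inside the gate *Col1a1* was at 11497 CPM.

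Among transcription factors, *Twist2*, a bHLH factor of the dermis, had 258 CPM (243 to 274) against 72.7 CPM (67.3 to 78.4), a log2 ratio of 1.83 (1.69 to 1.97), and *Tbx18*, a T-box factor of hair follicle mesenchyme, 29.7 against 13.4 CPM. The 3 genes at least 2-fold lower of the 17 measured were *Meox1* (4.41 against 9.68 CPM), *Meox2* (17.9 against 47.8 CPM) and *Sox6* (0.697 against 8.14 CPM, of which 1.58 CPM remained in the strict comparison). Of all genes tested, 2.12% were at least 2-fold higher and 6.84% lower, shares that stand beside the counts of this paragraph. *Sox4*, the SoxC partner of *Sox11*, had 195 against 354 CPM and did not follow it. Of 11 measured skeletal genes 4 were higher, namely *Sost*, *Runx3*, *Ibsp* and *Sp7*, and *Pthlh*, which encodes a ligand of *Pth1r*, was lower at 23.7 against 65.4 CPM. *Sp7*, the osteoblast factor osterix, had 6.27 CPM (4.13 to 9.13) against 2.75 CPM (1.78 to 4.06), and *Runx2* had 37.4 against 39.6 CPM. *Ibsp*, bone sialoprotein, had 65.7 against 20.1 CPM, but 61.1% of its 283 UMIs lay in 1 cell and 19 cells held it.

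Beside the counts of the remaining lists, 2.12% of all genes tested were at least 2-fold higher and 6.84% at least 2-fold lower. All of the 16 cell cycle genes had a log2 ratio above 0, with a median of 0.68, and *Top2a* (92 against 44.4 CPM) and *Ube2c* (130 against 64.6 CPM) passed 2-fold. At least 2 of them were found in 53% of the chosen cells and 42.5% of the other *SM22-SmoM2* fibroblasts, or 27.2% and 18.8% after thinning. Of the UMIs in the chosen cells, 329 of 396 of *Top2a* and 461 of 560 of *Ube2c* lay in 57 cells of 1 sub-cluster described below. The 186 chosen cells of the largest sub-cluster had 17.4 CPM of *Top2a* and 27.3 CPM of *Ube2c*. In the strict comparison 6 of the 16 were at least 2-fold higher (2.72% of all genes were), with a median of 0.89, as *Cenpf*, *Mcm5*, *Mcm6* and *Ccnb1* came to 1.28, 1.19, 1.15 and 1.03. Against the fibroblasts with Hedgehog target transcripts 5 were (2.74% of all genes). Of 17 immediate early and stress genes, *Fosl1*, an AP-1 component (139 against 50.9 CPM), and *Hmox1*, which encodes heme oxygenase-1 (525 against 262 CPM), passed 2-fold. Of 19 measured growth factors and receptors, *Fgfr2* (39 against 12.6 CPM) and *Igfbp2* (348 against 165 CPM) were higher, and *Igf2* (0.929 against 12.8 CPM), *Igfbp5* (64.6 against 195 CPM), *Igfbp7* (1727 against 3740 CPM) and *Tgfb2* (31.4 against 63.2 CPM) were lower. Of 9 measured contractile genes, *Actg2* (59 against 27.1 CPM) and *Mylk* (58.5 against 26.3 CPM) were higher, while *Acta2*, the myofibroblast actin, was at 116 against 214 CPM and *Tagln*, the gene whose promoter drove the reporter, at 224 against 183 CPM. Of 18 measured basement membrane and integrin genes, *Smoc1* (9.53 against 3.19 CPM) was higher and 5 were lower, *Col18a1*, *Lama4*, *Hspg2*, *Smoc2* and *Itga1*. In the strict comparison *Gli1*, *Tbx18*, *Actg2*, *Prdm1*, *Igfbp2* and *Hmox1* came to log2 ratios of 0.99, 0.98, 0.97, 0.91, 0.88 and 0.83, *Tgfb2* and *Pthlh* to -0.96 and -0.89, and *Itga1* turned to 0.35. Other genes of the lists that passed 2-fold there and not before were *Cyr61* at 1.25 and *Wnt4* at 1.03, higher, and *Igf1*, *Fgf7* and *Acta2* at -1.24, -1.03 and -1.01, lower.

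**Figure D3:**
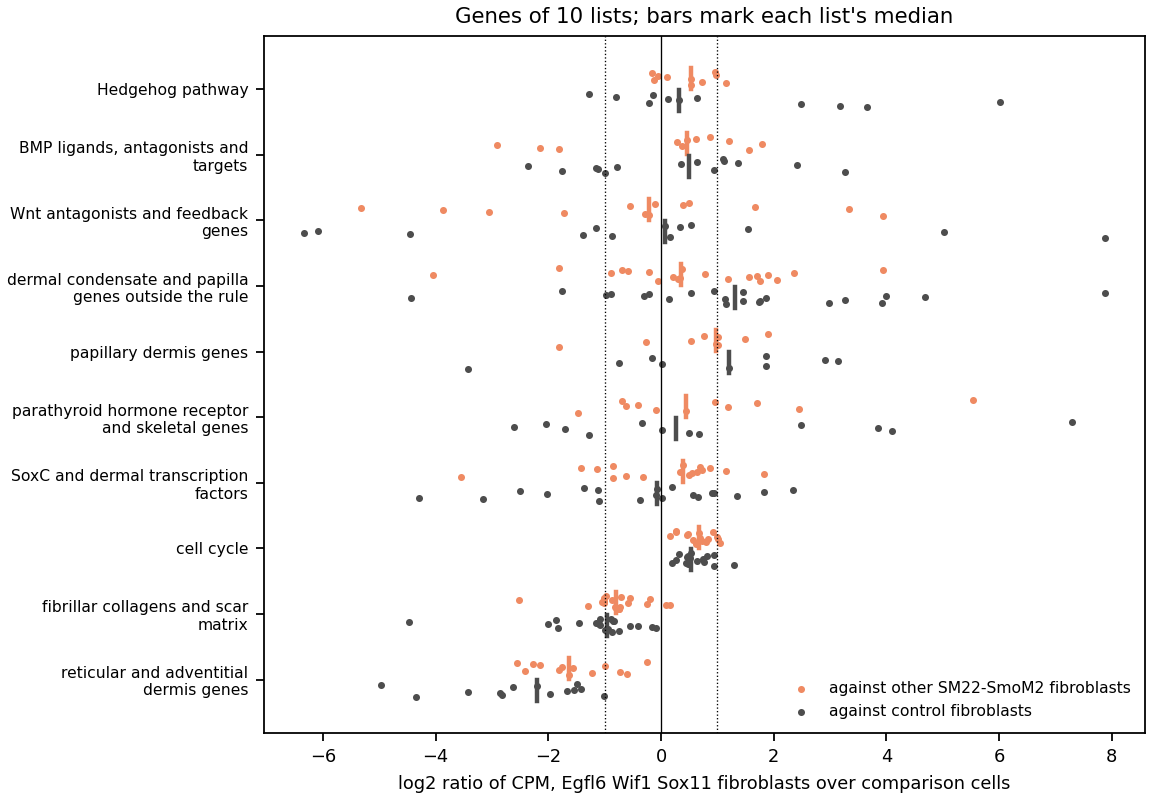
Log2 ratio of CPM (x axis) for the measured genes of 10 lists, in the *Egfl6 Wif1 Sox11* fibroblasts over the other *SM22-SmoM2* fibroblasts (orange) and over control fibroblasts (grey); each point is a gene, thick bars mark medians and dotted lines 2-fold. The reticular genes lie lowest, with medians of -1.64 and -2.19, and the cell cycle genes all lie above 0.

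The 10 lowest ratios rested on few UMIs in the chosen cells, between 1 and 13 a gene. *Fabp7*, a fatty acid binding protein of glia, had 1.16 CPM against 27.5 CPM, and 7.63 CPM in the strict comparison cells, and *Sostdc1*, *Bhlhe22*, *Tmprss5*, *Atp8a1*, *Shtn1* and *Cyp2j9* also had lower levels there than among all other *SM22-SmoM2* fibroblasts, while *Fgf1*, *Ptgis* and *Sod3* did not. *Fabp7* and *Sostdc1* were still lower in the chosen cells than in the strict comparison, at log2 ratios of -3.01 and -3.63. *Ptgis*, prostacyclin synthase, had 0.465 CPM (0.0563 to 1.68) against 14.5 CPM (12.1 to 17.2), and *Sod3*, extracellular superoxide dismutase, 0.697 against 19 CPM. When the same rule was applied to the strict comparison, the lowest were *Tgm2*, *Cfb*, *Ptgis*, *Sod3*, *Gjb2*, *Sfrp4*, *Igf2*, *Plscr2*, *Wisp2* and *Trf*. *Wisp2*, a secreted CCN protein, had 4.02 CPM in the chosen cells and 56.7 CPM in the strict comparison, and *Igf2*, an imprinted growth factor, 0.946 and 15.1 CPM.

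Against control fibroblasts, where the library and the condition change together, 539 of 11357 genes (4.75%) were at least 2-fold higher and 1537 (13.5%) at least 2-fold lower. In the strict comparison these were 656 of 10701 (6.13%) and 1177 (11%). The median gene was at -0.21, and at -0.13 in the strict comparison. *Hhip* had a log2 ratio of 6.02 (5.1 to 7.11), *Ptch1* 3.66 (3.44 to 3.89) and *Gli1* 3.18 (2.81 to 3.56). *Dkk1* was at 7.88 (6.31 to 10.18), *Frzb* at 5.03 (4.4 to 5.72) and *Cpne5* at 6.3 (5.39 to 7.39), and *Sost*, with the control group at 0 UMIs set to the floor of 3 UMIs, was at 7.29 with a lower counting limit of 6.97. *Id1* had 111 CPM and *Runx3* 3.1 CPM in control fibroblasts. All 13 reticular and adventitial genes were at least 2-fold lower, with a median of -2.19, and *Dlk1*, a non-canonical Notch ligand, was at 26.7 against 543 CPM. The 22 genes of the condensate and papilla list held 13 at least 2-fold higher and 2 at least 2-fold lower, with a median of 1.3.

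The chosen cells were not uniform. K-means (K = 8) on 20 principal components of the chosen cells and the other *SM22-SmoM2* fibroblasts, with all genes of the rule and the gate left out, placed 186 of them (51.1%) in a sub-cluster of 225 cells, of which they made up 82.7% (77.1 to 87.4). That sub-cluster, the first, was led by *Ibsp*, *Ifitm1*, *Runx3*, *Frzb*, *Cxcr4*, *Trps1*, *Id1* and *Nrtn*, of which *Ibsp* rests on few cells, as 173 of its 283 UMIs in the chosen cells lay in 1. Another 57 lay in the second, of 100 cells, led by *Gm26870* and then by mitosis genes such as *Ube2c*, *Birc5* and *Top2a*. The third, led by *Cldn1*, *Penk* and *Meox2*, held 55 of 272, and the fourth, led by *Areg*, *Srxn1* and *Il1rl1*, 42 of 176. The fifth sub-cluster, led by *Mmp3*, *Sfrp2* and *Eln*, held 20 of 235. The sixth, with *Sostdc1* among its leading genes, held 2 of 209, and 178 of its cells had another lineage's transcripts. The first and second together held 66.8% of the chosen cells and 9.36% of the other *SM22-SmoM2* fibroblasts. Clustering used these cells' own counts, so the split is a description.

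**Figure D4:**
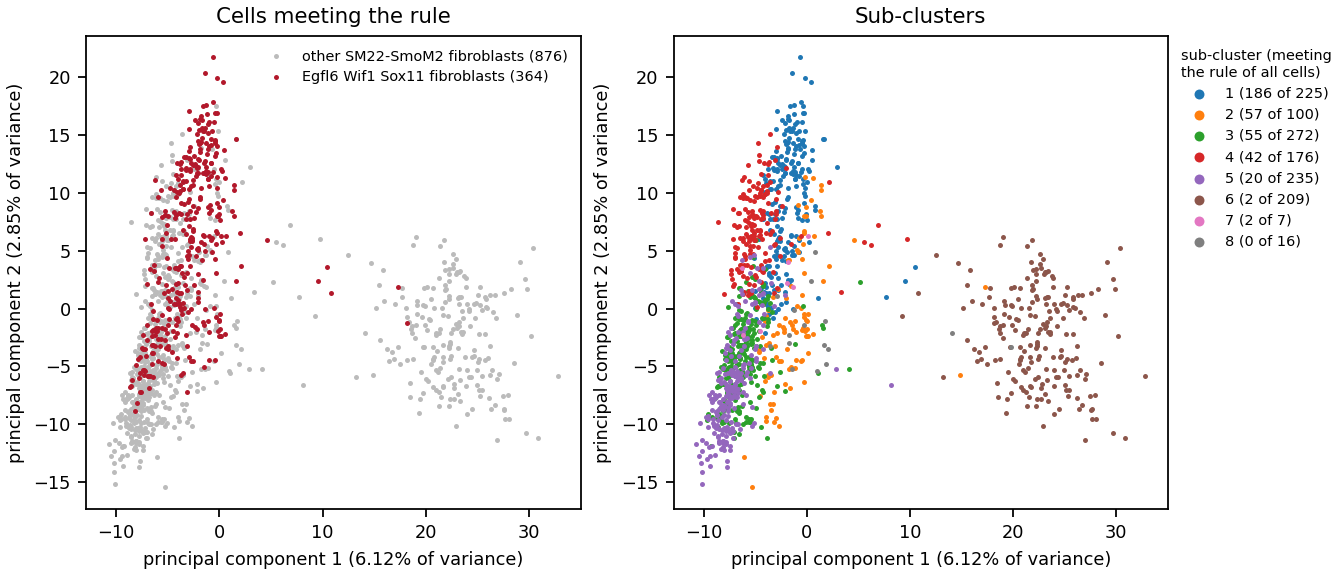
First and second principal components (axes, with their share of variance) of 1240 *SM22-SmoM2* cells, computed without the genes of the rule and the gate; each point is a cell, coloured on the left by whether it met the rule and on the right by sub-cluster. The 364 *Egfl6 Wif1 Sox11* fibroblasts crowd into sub-cluster 1 (186 of 225) and are nearly absent from sub-cluster 6 (2 of 209).

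Among the chosen cells alone, the sub-clusters differed in *Egfl6*, a gene of the rule. It had 829 CPM (787 to 874) in those of the first, 408 CPM (364 to 455) in the second, 37.8 CPM (24.9 to 55) in the third, 84.7 CPM in the fourth and 45.7 CPM in the fifth. *Wif1* was spread more evenly, at 725, 488, 484, 260 and 45.7 CPM. *Frzb*, *Sost* and *Runx3* followed *Egfl6*, with *Frzb* at 79.6 and 43.2 CPM in the first and second, and 0, 1.41 and 3.52 CPM in the other 3. *Ptch1* did not, at 171, 191, 202, 109 and 35.2 CPM. *Penk*, which encodes proenkephalin, was at 3223 CPM (3092 to 3357) in the chosen cells of the third and 164 CPM (146 to 185) in those of the first. *Hmox1* was at 892 CPM in the first and 807 CPM in the fourth, but at 73.7 CPM in the second and 50.4 CPM in the third, and *Areg*, an EGF receptor ligand, was at 215 CPM in the fourth. *Col1a1* was lowest in the first at 6383 CPM and highest in the fifth at 26218 CPM.

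Cells with more genes of the rule also had other levels of genes outside it. Cells just inside the threshold, with 4 of the 7 genes (122 cells, median 12396 UMIs), had 10.1 CPM of *Frzb*, 230 CPM of *Id1* and 542 CPM of *Mest*. Cells just outside, with 3 genes and all other conditions met (185 cells, median 12113 UMIs), had 6.57, 181 and 780 CPM. *Egfl6*, which counts toward the rule itself, was at 117 and 39.4 CPM. The larger step lay inside the choice, since cells with 5 genes (100 cells, median 9014 UMIs) had 44.3 CPM of *Frzb*, 481 CPM of *Id1* and 192 CPM of *Mest*, an imprinted gene of mesenchyme, and cells with 7 genes (49 cells) had 93.5, 1487 and 13.9 CPM. *Lum*, a small proteoglycan, was at 1608 CPM with 3 genes and 386 CPM with 7, while *Ptch1* was at 131 and 166 CPM. In the plot by number of rule genes *Mest* is lower and *Id1* higher at each step from 3 genes on, while with 0 to 2 genes *Mest* is higher at each step. The plot counts cells inside and outside the fibroblast gate. Inside the gate alone the steps from 3 genes on ran the same way. With 0, 1 and 2 genes *Mest* was at 992, 1191 and 1146 CPM there, so its last step was down.

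**Figure D5:**
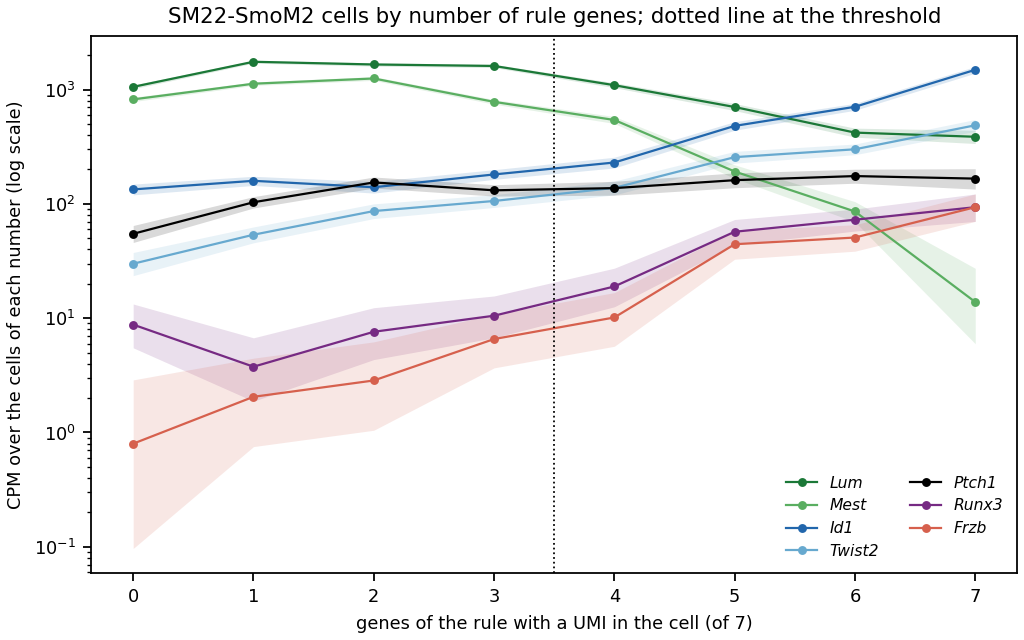
CPM of 7 genes (y axis, log scale) summed over the *SM22-SmoM2* cells that had each number of rule genes (x axis, 0 to 7) and met the other conditions; shaded bands are exact 95% Poisson intervals and the dotted line marks the threshold. *Id1* reaches 1487 CPM and *Mest* is down to 13.9 CPM at 7 genes.

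Male and female cells were counted from Y-linked genes and *Xist*. Of the 299 chosen cells with one or the other, 281 (94%, 90.7 to 96.4) were male, as were 86% (83.2 to 88.6) of the other *SM22-SmoM2* fibroblasts and 94.4% (92.1 to 96.3) of the strict comparison. The chosen cells made up 26.5% (23.4 to 29.7) of gated male and 12.4% (6.76 to 20.2) of gated female *SM22-SmoM2* fibroblasts, and 29.9% (26.5 to 33.5) and 31.7% (18.1 to 48.1) in the strict gate. The 18 female chosen cells held only 4, 8 and 5 UMIs of *Sost*, *Nrtn* and *Runx3*. *Nrtn* and *Runx3* had log2 ratios of 1.17 and 0.91 over the other female *SM22-SmoM2* fibroblasts. In the strict comparison of female cells they were at 1.44 (-0.46 to 3.62) and 0.76 (-1.46 to 3.09). *Sost* had 0 UMIs in the strict female comparison cells, so its ratio is only a lower limit set by the floor. With so few UMIs these values do not show whether the sexes differ. Both kinds of transcript were found in 8 chosen cells (2.2%), and Scrublet, a doublet caller, marked 1 of the 364 cells. No cell was removed as a doublet. The deposited barcode list names the whole kit and not the cells, so barcodes shared between the libraries were not counted.

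RefSeq promoters, from 250 bases before to 50 bases after each start in GRCm38.p6, were at hand for 6 genes of the rule, for *Ptch1* and for *Hhip*. None of these windows held the letters GACCACCCA, the Gli consensus, on either strand (TGGGTGGTC on the other), and 83 of all 32851 windows (0.253%) held them. This says only that the letters are not in these windows.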

How the data were processed

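The authors sequenced 2 single-cell libraries (Chromium 3' v2), 1 per condition, and deposited the matrices of raw UMI counts per gene and cell made with Cell Ranger on mm10. Versions of Cell Ranger and bcl2fastq and the strand setting are not given in the sources used here. The deposited table pairing gene IDs with symbols was used for the 27998 rows of the matrices. Cells with over 10% mitochondrial UMIs were left out (10 *SM22-SmoM2*, 22 control). Counts were summed over the cells of a group and scaled to 1000000 UMIs (CPM). Genes with at least 50 UMIs over both groups were compared, and 2-fold was the threshold. Levels carry exact Poisson intervals, ratios exact conditional binomial ones and shares exact binomial ones (Clopper-Pearson), all at 95%. They cover counting error only, as cells of 1 library are not replicates. A group at 0 was set to a floor of 3 UMIs over the group. The genes named were the 14 highest and 10 lowest ratios against the other *SM22-SmoM2* fibroblasts, the genes of the rule, and members of 21 gene lists. Members and lists were chosen with earlier results of these data known. K-means (50 starts) used 2000 variable genes and 20 components, and Leiden clustering, 5 and 12 clusters were alternatives. The interval code was tested on simulated data for 10343 genes of the comparison with the other *SM22-SmoM2* fibroblasts, and intervals held the true ratio for 96% of 200 changed genes. The simulated sums had counting error alone, so this checks the code and not coverage under the spread between real cells. Python 3.11.15, numpy 2.4.6, scipy 1.17.1, pandas 2.3.3, scikit-learn 1.9.0, scanpy 1.11.5 and matplotlib 3.10.9 were used. Positions are from GENCODE M21. One gene is not reported here.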

Additional observations from a re-analysis of the deposited data

Results flagged for a closer look

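The 552 *SM22-SmoM2* cells that entered no comparison, being neither chosen cells nor gated fibroblasts, also held transcripts of 6 of the 7 genes of the rule above the level in the 1143 control cells outside the gate. *Wif1* was at 95.3 CPM in them against 0.435 CPM, *Sox11* at 39.2 against 8.27 CPM, and *Pth1r* at 27.2 against 8.01 CPM. *Col26a1* was at 19.2 against 0.174 CPM, *Egfl6* at 17 against 0.174 CPM, and *Bcl11b* at 9.74 against 3.57 CPM. *Fam212a* was not higher, at 48.5 against 55.9 CPM. With 1 library per condition the difference was not tested, and cells outside the gate, free RNA and library cannot be told apart in it.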

How the results depend on the processing

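The genes named for the *Egfl6 Wif1 Sox11* fibroblasts were those of the rule or those with extreme ratios, so their direction is no sign of stability. Those that changed sign all the same were *Trf*, reported at -0.92 and at 0.14 in male cells alone, and *Ccl12*, at -2.49 with at least 5 rule genes asked for and -2.39 with the rule read from cells thinned to 2500 UMIs. In female cells alone (18 chosen cells) *Runx3* and *Fam212a* were under 2-fold, at log2 ratios of 0.91 and 0.17. They had 5 and 8 UMIs in those cells. *Sod3*, *Tmprss5*, *Atp8a1* and *Shtn1* came to -0.47, -0.56, -0.36 and -0.56 in female cells. *Sod3* had 0 UMIs in the 18 cells, and *Tmprss5*, *Atp8a1* and *Shtn1* had 1 UMI each in all 364 chosen cells. Ratios of these 4 genes thus rest on the floor of 3 UMIs or on 1 UMI, and show no loss of a difference. Also under 2-fold were *Gjb2* with 3 rule genes asked for (-0.43), *Wisp2* against fibroblasts with Hedgehog target transcripts (-0.55) and *Ccl12* in the strict comparison (0.52). The share of gated *SM22-SmoM2* fibroblasts, 23.1%, was 13.9% with 5 genes, 37% with 3, 8.34% with the thinned rule, 15.1% with a gate of 20 per 10000, 26.5% in male and 12.4% in female cells, and 28.2% in the strict comparison. The 14 control cells that met the rule became 1, 83 and 0 with 5 genes, 3 genes and the thinned rule. Genes at least 2-fold higher than in the other *SM22-SmoM2* fibroblasts, 216, came to 362 with the thinned rule, 114 in female cells, 500 with a minimum of 10 UMIs and 95 with 200. Genes lower, 698, came to 1391 with the thinned rule, 374 against fibroblasts with *Ptch1* and *Gli1* transcripts, and 1380 and 304 with the minima of 10 and 200 UMIs. Against control fibroblasts, 539 higher came to 327 with levels from thinned cells and to 960 and 287 with those minima, and 1537 lower to 898 with 200 UMIs. The 2 cell cycle genes at least 2-fold higher became 6 in the strict comparison and 5 against fibroblasts with Hedgehog target transcripts. The share of chosen cells in the pair of sub-clusters with most of them, 66.8%, was 79.7% with 5 clusters, 60.2% with 12 and 47.5% with Leiden clustering. The strict comparison and the restriction to cells inside the gate were added after the data were seen. No paired analysis was possible because each condition had 1 library. Why these values moved was not tested. Depth limits the low genes, since a gene with 50 UMIs has a wide counting interval.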

Other observations

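Of the 4 chosen cells with another lineage's transcripts, 1 held 603 UMIs of the immune list, 200 of them *Lyz2*, and another held 134. The remaining pair held 34 and 9 UMIs of the Schwann list. Scrublet marked none of the 4.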
